A study of Mus musculus with 16 samples.

Results

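The comparison described here is that of testes lacking the nuclear receptor LRH1 (encoded by *Nr5a2*) in Sertoli cells with Cre-negative control testes at postnatal day 3 (P3). Messenger RNA was sequenced from whole mouse testes, 4 P3 *Dhh-Cre* mutant samples (*Lrh1* flox/flox; *Dhh-Cre*) and 4 P3 control samples (*Lrh1* flox/flox, no Cre), so both groups were homozygous for the floxed allele. All mice were of mixed 129Sv and C57Bl/6J background, and each P3 library was made from 400 ng of total RNA. The series also holds 4 P1 *Nanos3-Cre* samples (*Lrh1* flox/-; *Nanos3-Cre*, in which Cre acts in germ cells) and 4 P1 controls (*Lrh1* flox/-, no Cre), which are used below only as another pair of group means. The values are the mean FPKM of each group (a fragment count divided by gene length and by the size of the library) as computed by the authors. Genes were kept when the average of the P3 *Dhh-Cre* and P3 control means was at least 0.5 FPKM, which left 16923 of the 35983 genes in the table. The difference is given as the log2 ratio of the mean in *Dhh-Cre* testes to the mean in control testes, after adding 0.1 FPKM to each, so that a negative value means a lower mean in the mutants. This addition makes the ratios of low genes smaller in size.

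Because only group means were used, the spread between samples and the depth of a single library are unknown, and no test was made. The words higher and lower below compare means whose error is unknown, and whether any one difference exceeds the spread between replicates was not determined here. The design has 3 further limits. Control mice carried no Cre, so an effect of the transgene cannot be told apart from that of the deletion. The *Dhh* promoter is also known to be active in Schwann cells of peripheral nerves. In RNA from whole testes, fewer cells of a type and less RNA per cell cannot be told apart. The same limit holds for higher means, because FPKM is relative to the size of the library. The paper states that mutant testes had 3-fold fewer Sertoli cells at P3. With fewer Sertoli cells, transcripts of other cell types take a larger share of the library, even with no change per cell. Whether a higher mean below reflects such a share or more RNA per cell was not tested.

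Sertoli cells are the somatic cells of the seminiferous tubule. They surround and feed the germ cells, secrete hormones such as anti-Müllerian hormone and inhibin, and direct the formation of the testis in the fetus. LRH1 and its paralog SF1 (*Nr5a1*) are orphan nuclear receptors that bind DNA as monomers, at an extended half-site of the nuclear receptor motif, and SF1 is required for the gonad to form. Outside the tubules lie steroid-producing Leydig cells, fibroblast-like interstitial cells, vessels and macrophages, and the tubules drain through the rete testis into the efferent ducts and the epididymis.

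The targeted gene was expressed at a low level in whole testes. *Nr5a2* (chromosome 1 of GRCm38 from 136842571 to 136960448) had a mean of 0.609 FPKM in *Dhh-Cre* testes, against 1.15 FPKM in control testes (log2 ratio -0.81). *Nr5a1* (chromosome 2 from 38692656 to 38714542) had 36.8 FPKM in *Dhh-Cre* and 65.3 FPKM in control testes (log2 ratio -0.83). Because this value counts every exon in a mixture of cell types, it is only a partial check of the deletion.

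The labelled tissue was checked against its markers. Among Sertoli cell markers, 29 of 30 were measured, and 26 had a lower mean in *Dhh-Cre* than in control testes, against 49.8% of all genes kept. The other 3, *Cldn11*, *Tsx* and *Trf*, had a higher mean, as 50.2% of all genes did, and the list's median log2 ratio was -1.45. The summed FPKM of the list was 1063 in *Dhh-Cre* and 2923 in control testes. Germ cell, Leydig cell, interstitial, endothelial and macrophage markers were measured in both groups, and 3 of 16 lymphocyte markers reached the level needed to be kept.

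Most genes had similar means in the 2 groups at P3. The median log2 ratio was 0.00, its quartiles were -0.21 and 0.27, and 79.2% of the 16923 genes lay within 1.5-fold. A total of 606 genes (3.58% of genes kept) were lower past 2-fold in *Dhh-Cre* testes, and 803 (4.75%) were higher past 2-fold. Past 3-fold, 188 genes (1.11%) were lower and 150 (0.886%) were higher. When the minimum of 0.5 FPKM was applied to the control mean alone, 742 genes were lower and 582 higher past 2-fold, so which direction held more genes depends on this filter. The genes lower past 2-fold summed to 3979 FPKM in *Dhh-Cre* and 10966 FPKM in control testes, and those higher past 2-fold to 11773 FPKM in *Dhh-Cre* and 4763 FPKM in control testes.

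The 2 group means at P1 lay closer together. Among 16121 genes kept by the same rule, 410 (2.54%) were past 2-fold in either direction between P1 *Nanos3-Cre* and P1 control testes, compared with 1409 (8.33%) at P3. The interquartile range of the log2 ratio was 0.49 at P3 and 0.24 at P1. Across the 15571 genes kept at both ages, the P3 and P1 ratios had a Pearson correlation of 0.09 and a Spearman correlation of 0.13, a description across genes, which are not independent of each other.

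**Figure D1:**
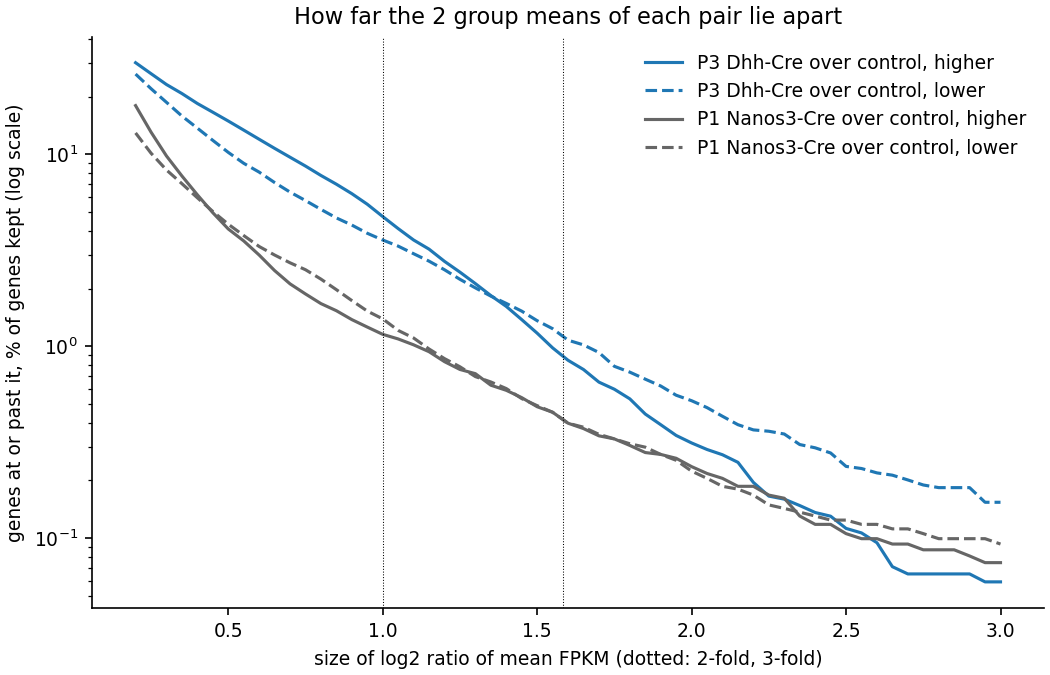
Percentage of genes kept (log scale) whose log2 ratio of group means is at least the size on the x axis, for P3 *Dhh-Cre* over P3 control and P1 *Nanos3-Cre* over P1 control, with solid lines for higher and dashed lines for lower genes. At 2-fold the P3 lines stand at 4.75% and 3.58%, above the P1 lines at 1.15% and 1.39%.

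Ratios were wider at low expression. Between 0.5 and 1 FPKM, 6.61% of 2450 genes were lower and 9.47% higher past 2-fold. Between 5 and 10 FPKM, these shares were 2.06% and 2.75% of 3308 genes, and at 100 FPKM or more they were 5.08% and 7.03% of 256 genes. By gene class, 2.79% of 13606 protein-coding genes were lower and 4.44% higher, whereas among 644 small RNA genes, which an mRNA library measures poorly, 13.5% were lower and 13.7% higher. Just inside the threshold stood *Fgd2*, with means of 0.710 FPKM in *Dhh-Cre* and 0.290 FPKM in control testes, and just outside it *Gm26978*, with 0.375 and 0.624 FPKM in the same order.

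The marker lists are short, and most genes past 2-fold stood outside them. Of the 606 genes lower past 2-fold, 20 were in the Sertoli cell list, which had 29 measured members. Of the 606, 568 were in none of 20 cell type lists. Of the 803 genes higher past 2-fold, 9 were in the interstitial list, which had 16 measured members, and 761 were in no cell type list. The share of all genes kept that stands in any list was not computed, so these counts do not show how far markers account for the differences. Lists of gene families were therefore described beside the cell type lists, 85 lists in all, which placed 134 of the lower and 228 of the higher genes. The list and family counts below are to be read beside the shares of all genes kept. These were 50.2% higher and 49.8% lower, with 4.75% higher and 3.58% lower past 2-fold. Members kept only through their mean in *Dhh-Cre* testes add to the higher counts.

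**Figure D2:**
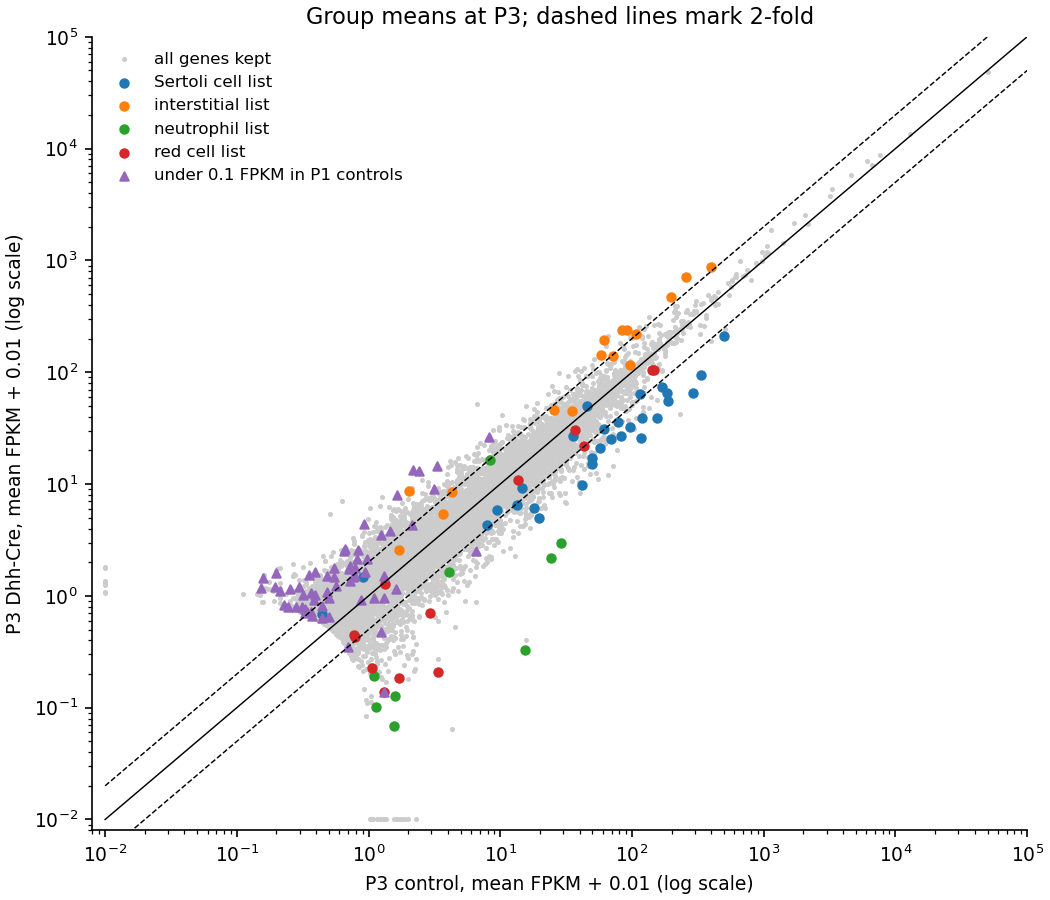
Mean FPKM plus 0.01 in P3 *Dhh-Cre* testes (y axis) against P3 control testes (x axis), both on log scales, for the 16923 genes kept, with dashed lines at 2-fold. Of 29 Sertoli cell genes 26 lie below the diagonal, all 16 interstitial genes lie above it, 8 of 9 neutrophil genes lie far below it (*Lcn2* is above), and protein-coding genes under 0.1 FPKM in P1 controls mostly above it.

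Genes outside the marker list were among the lowest ratios of well expressed genes. *Elovl2*, which encodes an elongase of very long polyunsaturated fatty acids, had 11.9 FPKM in *Dhh-Cre* and 66.2 FPKM in control testes (log2 ratio -2.46). *Mafa*, a basic leucine zipper transcription factor gene known from pancreatic beta cells, had 8.33 FPKM in *Dhh-Cre* and 40.4 FPKM in control testes (log2 ratio -2.27). *Tmem114*, the gene of a membrane protein related to claudins, had 6.74 and 31.8 FPKM in the same order. These 3 genes, which were chosen after their values were seen, are protein-coding genes on chromosomes 13, 15 and 16.

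Among the largest differences in FPKM were those of 2 glutathione S-transferase genes of the mu class, whose enzymes join glutathione to reactive compounds. *Gstm1* had 243.9 FPKM in *Dhh-Cre* and 511 FPKM in control testes, and *Gstm2* had 189 and 401 FPKM in the same order. *Gstm6*, which lies in the same cluster on chromosome 3, had 64.5 FPKM in *Dhh-Cre* and 186 FPKM in control testes (log2 ratio -1.53). The mu class did not share 1 direction: *Gstm5* had 49.5 FPKM in *Dhh-Cre* and 43.8 FPKM in control testes and *Gstm4* had 4.93 and 5.08 FPKM. Gstm genes are similar in sequence, and the sources used here do not state how reads shared by several of them were assigned. Of 21 measured glutathione S-transferase genes, 13 were lower and 8 higher, with a median of -0.18. *AU015836*, an uncharacterized gene on the X chromosome, had 56.3 FPKM in *Dhh-Cre* and 193 FPKM in control testes.

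A list of cystatins, inhibitors of cysteine proteases, held members of both directions. Of 15 measured members, 12 were lower in *Dhh-Cre* testes, 11 of them past 2-fold, and the median was -2.01. *Cst12* had 38.7 FPKM in *Dhh-Cre* and 156 FPKM in control testes, and *Cst9* had 55.5 and 187 FPKM, and both stood in the Sertoli cell list. In the same cluster on chromosome 2, *Cst3*, the widely expressed cystatin C gene, had 92.1 FPKM in *Dhh-Cre* and 61.8 FPKM in control testes, and *Cst8* had 39.5 and 33.5 FPKM. A second cluster held the stefin A genes, known from neutrophils. These were 6 neighbouring genes on chromosome 16 between 36156811 and 36455392 (*Stfa2l1*, *Cstdc4*, *Stfa1*, *Cstdc5*, *Stfa2* and *Stfa3*), and all 6 were lower past 2-fold. *Stfa2* had 0.170 FPKM in *Dhh-Cre* and 1.98 FPKM in control testes, and *Stfa3* was listed at 0 in *Dhh-Cre* and at 1.01 FPKM in control testes.

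Markers of blood cells differed in the same direction as the stefins. Of 9 measured neutrophil markers, 8 were lower past 2-fold, and the list summed to 24.8 FPKM in *Dhh-Cre* and 87.9 FPKM in control testes. *Ngp*, a neutrophil granule protein gene, had 0.318 FPKM in *Dhh-Cre* and 15.5 FPKM in control testes (log2 ratio -5.22). The exception was *Lcn2*, the lipocalin 2 gene, which epithelia also express, with 16.4 FPKM in *Dhh-Cre* and 8.36 FPKM in control testes. All 13 measured red cell markers were lower, with a median of -0.77, and *Slc4a1*, which encodes band 3, an anion transporter, had 0.20 FPKM in *Dhh-Cre* and 3.37 FPKM in control testes. The globin gene *Hba-a1* had 104 and 147 FPKM in the same order.

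These blood cell genes also differed between the groups at P1. *Ngp* had 19.6 FPKM in P1 *Nanos3-Cre* and 2.50 FPKM in P1 control testes, *S100a8* had 81.4 and 25.8 FPKM, and the neutrophil list summed to 186 FPKM in P1 *Nanos3-Cre* and 58.7 FPKM in P1 control testes. The neutrophil sum therefore differed in opposite directions in the pairs at the 2 ages. The part of circulating blood cells in the P3 result was not tested. Without the neutrophil and red cell list members, a choice made after seeing the data, 593 genes were lower past 2-fold and 176 past 3-fold.

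Genes known from the epididymis and other ducts were among those with higher means in *Dhh-Cre* testes. *Crisp1*, a sperm-coating protein gene of the epididymis, had 14.4 FPKM in *Dhh-Cre* and 3.27 FPKM in control testes (log2 ratio 2.10). *Wfdc15b*, a gene of the whey acidic protein family of protease inhibitors, had 13.4 FPKM in *Dhh-Cre* and 2.18 FPKM in control testes (log2 ratio 2.56). The protease inhibitor gene *Spink8* had 7.98 FPKM in *Dhh-Cre* and 1.65 FPKM in control testes, and *Spink12* had 9.05 and 3.12 FPKM. In a list of rete testis and duct epithelium markers, 10 of 12 measured genes were higher and 7 were higher past 2-fold, with a median of 1.15 and a summed FPKM of 102 in *Dhh-Cre* and 52.1 in control testes. The exceptions were *Lhx1* and *Aqp1*, with 10.1 FPKM in *Dhh-Cre* and 12.01 FPKM in control testes for *Aqp1*, the gene of a water channel.

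Epithelial junction and keratin genes were mostly higher as well, as were markers of mesothelium and surface epithelium, of which 12 of 13 were higher and 8 past 2-fold, with a median of 1.10. *Krt18* and *Krt19* stand in that list too, and the part of either epithelium in the result was not tested. Claudins form the strands of tight junctions, and 12 of 14 measured claudin genes were higher, 7 of them past 2-fold, with a median of 0.99 (0.96 for the 13 that reached the minimum in controls). *Cldn8* had 26.1 FPKM in *Dhh-Cre* and 8.21 FPKM in control testes, *Cldn3* had 17.8 and 5.44 FPKM, and *Cldn4* had 10.4 and 2.83 FPKM. *Cldn11*, the claudin of the Sertoli cell barrier, had nearly equal means, 50.1 FPKM in *Dhh-Cre* and 45.4 FPKM in control testes. Of 10 measured keratins, 8 were higher and 5 were higher past 2-fold. *Krt7*, *Krt8* and *Krt18* were neighbours among kept genes on chromosome 15 and were all higher past 2-fold. Among gap junction genes the direction was split, with *Gja1*, the main connexin of Sertoli cells, at 48.7 FPKM in *Dhh-Cre* and 121 FPKM in control testes, against 8 of 10 connexins with a higher mean in *Dhh-Cre* testes.

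Antimicrobial peptide genes were divided in a similar way. Of 24 measured defensin, Wfdc and related genes, 15 were higher and 9 lower, and of the 19 that reached 0.5 FPKM in controls 10 were higher. *Defb19*, a beta-defensin gene known from Sertoli cells, had 32.3 FPKM in *Dhh-Cre* and 95.8 FPKM in control testes, and *Wfdc10* had 17.4 and 51.7 FPKM. In contrast, *Defb2*, kept only through its mean in *Dhh-Cre* testes, had 1.16 FPKM in *Dhh-Cre* and 0.142 FPKM in control testes, and its neighbour *Defb11* on chromosome 8, also kept in that way, had 1.10 and 0.204 FPKM.

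Several of these genes had means under 0.1 FPKM in P1 controls, and genes with this property were described as a set, a choice made after the data had been seen. Of the protein-coding genes kept at P3, 62 met it, and 40 of these (64.5%) were higher past 2-fold in P3 *Dhh-Cre* testes. The filter on P3 means favours this direction, since only 34 of the 62 reached 0.5 FPKM in P3 controls and the others were kept through their mean in *Dhh-Cre* testes. Of those 34 genes, 20 (58.8%) were higher and 3 lower past 2-fold, with a median of 1.14. The set is not a list of duct genes, since it also held the germ cell gene *Nanos2*, *Hemgn*, known from erythroid cells, and the Hox genes *Hoxd12* and *Hoxd13*. It included transcription factor genes of duct and kidney epithelia, namely *Pou3f3* (3.51 FPKM in *Dhh-Cre* and 1.24 FPKM in control testes) and *Foxi1* (1.61 and 0.190 FPKM). It also included *Wnt9b*, a Wnt ligand gene of the Wolffian duct, with 1.83 FPKM in *Dhh-Cre* and 0.713 FPKM in control testes.

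Several of these duct genes were also higher in P1 *Nanos3-Cre* than in P1 control testes. *Cldn8* had 2.71 FPKM in P1 *Nanos3-Cre* and 0.046 FPKM in P1 control testes, and *Spink12* had 1.56 FPKM in P1 *Nanos3-Cre* and was listed at 0 in P1 controls. Of the 62 genes, 54 had a higher mean in P1 *Nanos3-Cre* than in P1 control testes. Choosing genes that are low in P1 controls favours a high count in advance, so no conclusion is drawn from it. The share of all genes kept at P1, 54.5%, is not a like comparison. Those genes averaged at least 0.5 FPKM at P1, whereas only 8 of the 62 reached 0.5 FPKM in P1 *Nanos3-Cre* testes. The sources used here do not state how much duct tissue each sample held, group means cannot show whether 1 sample carried the signal, and the part of dissection in the result was not tested. Without these 62 genes, 763 genes were higher past 2-fold and 133 past 3-fold.

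**Figure D3:**
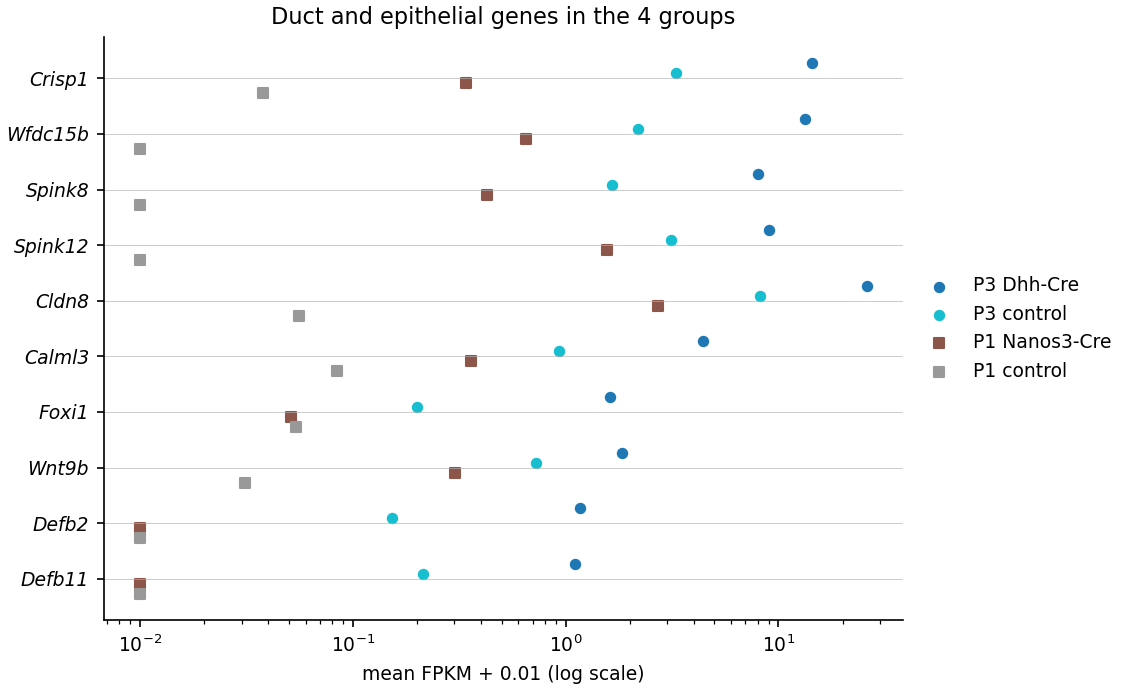
Mean FPKM plus 0.01 (log scale) of 10 duct and epithelial genes, chosen after their values were seen, in P3 *Dhh-Cre*, P3 control, P1 *Nanos3-Cre* and P1 control testes, 1 point per group mean. P3 *Dhh-Cre* is the highest of the 4 for each gene, for example 26.1 FPKM for *Cldn8*.

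All Hox genes that reached the minimum level were higher in *Dhh-Cre* testes. Hox genes encode homeodomain transcription factors that give cells their position along the body axis, and their number increases from the anterior to the posterior end of each cluster. Of 31 Hox genes kept, 31 had a higher mean and 14 were higher past 2-fold, with a median of 0.94. Another 8 Hox genes of the table were below the minimum, and among these *Hoxb13*, *Hoxc12* and *Hoxc13* had lower means in *Dhh-Cre* testes. *Hoxa10*, known for patterning the reproductive tract and limbs, had 10.9 FPKM in *Dhh-Cre* and 2.54 FPKM in control testes (log2 ratio 2.06). *Hoxa9* had 5.99 FPKM in *Dhh-Cre* and 1.67 FPKM in control testes, and *Hoxa11* had 5.26 and 1.47 FPKM.

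The size of the difference varied with the cluster. In Hoxb, 6 of 8 genes were higher past 2-fold (*Hoxb2*, *Hoxb3* and *Hoxb5* to *Hoxb8*), with a median of 1.41. In Hoxd, 1 of 8 genes was past 2-fold, namely *Hoxd11*, and the median was 0.70. *Hoxd9* and *Hoxd8*, the Hox genes with the highest means of these testes, had small ratios, with 61.9 FPKM in *Dhh-Cre* and 42.4 FPKM in control testes for *Hoxd9* (log2 ratio 0.54). In Hoxa the 3 most posterior genes kept, *Hoxa9*, *Hoxa10* and *Hoxa11*, had the largest ratios. Hox genes were also mostly higher at P1, where 23 of 25 measured had a higher mean in *Nanos3-Cre* than in control testes, with a median of 0.43. *Hoxb8* was an example, with 0.889 FPKM in P1 *Nanos3-Cre* and 0.199 FPKM in P1 control testes, while *Hoxa10* had 0.700 and 0.581 FPKM.

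**Figure D4:**
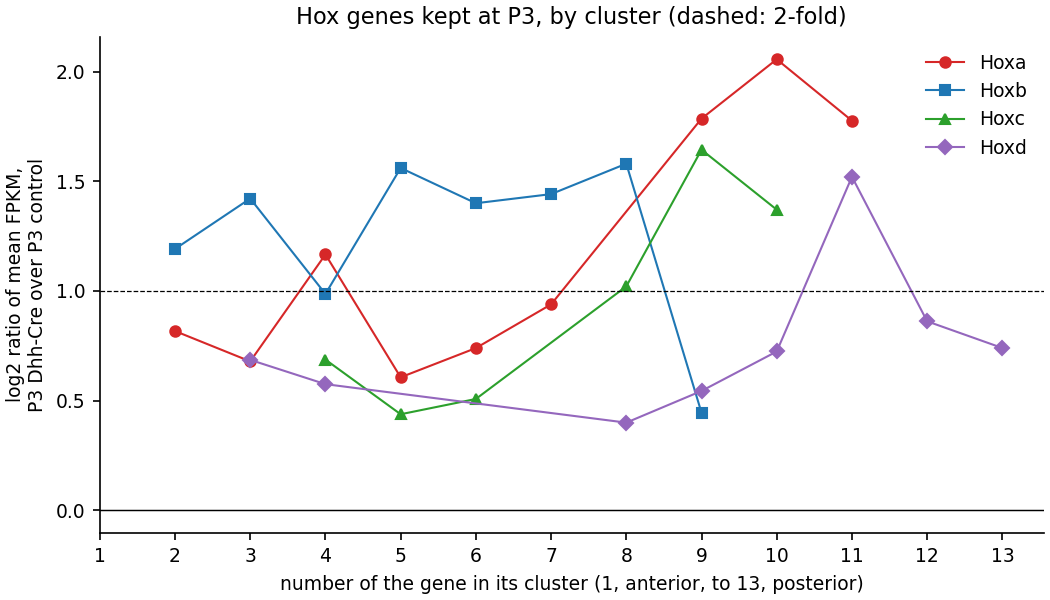
Log2 ratio of mean FPKM in P3 *Dhh-Cre* over P3 control testes (y axis) for the 31 Hox genes kept, by their number in the cluster (x axis), 1 line per cluster. All points lie above 0, Hoxb genes mostly above 2-fold, and *Hoxa10* is highest at 2.06.

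Other homeobox genes were less uniform. Of 38 measured genes outside the Hox and Rhox families, 27 were higher and 11 lower, with a median of 0.38. *Emx2*, which is required for the urogenital tract to form, had 14.7 FPKM in *Dhh-Cre* and 4.21 FPKM in control testes (log2 ratio 1.79), and the Hox cofactor gene *Meis2* had 6.30 and 2.19 FPKM. The exceptions included *Zfhx2*, with 2.43 FPKM in *Dhh-Cre* and 5.92 FPKM in control testes. Of the X-linked Rhox genes, *Rhox8*, which Sertoli cells express, had 9.72 FPKM in *Dhh-Cre* and 42.0 FPKM in control testes, while the other 7 measured Rhox genes had log2 ratios from -0.15 to 0.53.

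Extracellular matrix and growth factor genes of the interstitium were higher in *Dhh-Cre* testes. All 16 genes of the interstitial list were higher, 9 of them past 2-fold, with a median of 1.09. All 13 small leucine-rich proteoglycans, which bind collagen fibrils, were higher as well, and *Lum*, the lumican gene, had 192 FPKM in *Dhh-Cre* and 61.7 FPKM in control testes. *Mfap4*, a gene of elastic microfibrils, had 712 FPKM in *Dhh-Cre* and 259 FPKM in control testes. Of 37 collagens, 29 were higher. The 8 lower ones included the basement membrane collagens *Col4a1*, with 67.4 FPKM in *Dhh-Cre* and 83.6 FPKM in control testes, and *Col4a4*, with 30.5 and 43.6 FPKM. The largest ratio of an abundant gene was that of *Myoc*, which encodes the secreted glycoprotein myocilin, with 51.6 FPKM in *Dhh-Cre* and 6.63 FPKM in control testes (log2 ratio 2.94). At P1 *Myoc* had 12.7 FPKM in *Nanos3-Cre* and 11.5 FPKM in control testes.

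**Figure D5:**
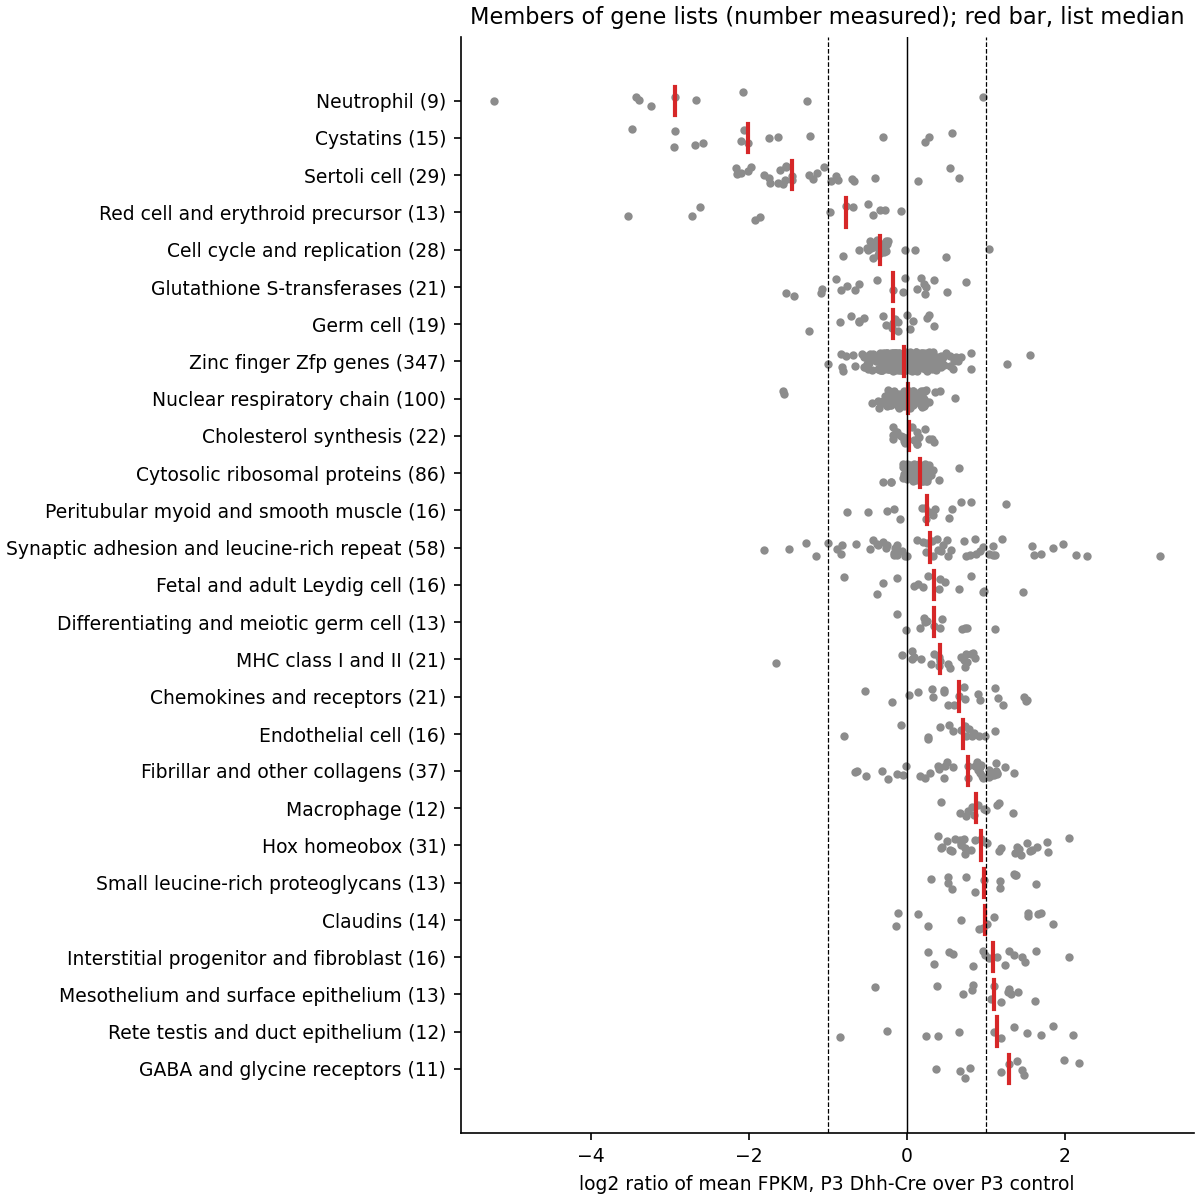
Log2 ratios of mean FPKM, P3 *Dhh-Cre* over P3 control testes (x axis), for the members of 27 of the 85 lists, 1 point per gene kept, with the number of genes in parentheses and the list median as a red bar. Medians run from -2.94 for neutrophil genes to 1.29 for GABA and glycine receptors, and ribosomal, respiratory chain and cholesterol genes lie near 0.

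Signalling ligands and receptors were mostly higher. The insulin-like growth factor list had 13 of 15 genes higher and a median of 0.82. *Igf1*, a growth factor gene of interstitial cells, had 236 FPKM in *Dhh-Cre* and 84.0 FPKM in control testes, and *Igfbp2*, which encodes a binding protein of IGFs, had 98.7 and 28.0 FPKM. The receptor genes *Igf1r*, *Igf2r* and *Insr* had nearly equal means, with 16.2 FPKM in *Dhh-Cre* and 16.3 FPKM in control testes for *Igf1r*. Of 36 Wnt genes, 26 were higher and 10 of them past 2-fold, against 50.2% and 4.75% of all genes kept. Of the 34 that reached 0.5 FPKM in controls, 24 were higher and 9 of them past 2-fold. Among these, *Sfrp1*, a secreted Wnt antagonist gene, had 237 FPKM in *Dhh-Cre* and 85.7 FPKM in control testes, while the ligand gene *Wnt6* was lower, with 26.5 FPKM in *Dhh-Cre* and 61.2 FPKM in control testes. Fibroblast growth factor genes had a median of 0.73, and *Fgf7*, a mesenchymal ligand gene, had 3.86 FPKM in *Dhh-Cre* and 1.23 FPKM in control testes.

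In the TGF-beta and BMP list, 7 of 35 genes were lower and 7 higher past 2-fold, against 3.58% and 4.75% of all genes kept. Of the 34 that reached 0.5 FPKM in controls, 6 were higher past 2-fold. The lower ones included the Sertoli cell hormones *Amh*, with 65.7 FPKM in *Dhh-Cre* and 291 FPKM in control testes, and *Inha*, the inhibin alpha subunit gene, with 212 and 498 FPKM. The higher ones included *Bmp4*, with 13.1 FPKM in *Dhh-Cre* and 5.74 FPKM in control testes, and *Gdf10*, with 14.2 and 5.89 FPKM. Guidance genes were split too. The semaphorin and plexin genes *Sema7a* (13.6 FPKM in *Dhh-Cre* and 42.9 FPKM in control testes) and *Plxna1* (27.9 and 71.6 FPKM) were lower, and the netrin receptor genes *Dcc* (3.52 and 0.888 FPKM) and *Unc5c* (2.58 and 0.726 FPKM) were higher. Of 20 ephrin and Eph receptor genes 16 were higher, against 50.2% of all genes kept, with *Epha3* at 13.6 FPKM in *Dhh-Cre* and 4.67 FPKM in control testes.

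Genes best known from neurons had some of the largest ratios. All 11 measured GABA and glycine receptor genes, subunits of receptors of inhibitory transmitters, were higher, 7 of them past 2-fold, and the list had the highest median of all 85 (1.29). Of these, 9 reached 0.5 FPKM in controls, with 6 past 2-fold and the same median, and the other members were kept through their mean in *Dhh-Cre* testes. *Gabrb2* had 4.83 FPKM in *Dhh-Cre* and 0.989 FPKM in control testes, and *Gabra3* had 9.95 and 3.71 FPKM. *Gria4*, a subunit gene of AMPA-type glutamate receptors, had 6.19 FPKM in *Dhh-Cre* and 1.43 FPKM in control testes. Of 6 measured glutamate receptor genes, 4 were higher and 2 lower, and of the 5 that reached 0.5 FPKM in controls 3 were higher. Of 55 potassium channel genes, 28 were higher and 27 lower, with 5 higher and 8 lower past 2-fold. Of 20 sodium and calcium channel genes, 16 were higher and 4 lower. At P1 the GABA list had a median of 0.08.

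Synaptic adhesion genes were spread widely. Of 58 measured, 34 were higher and 24 lower, with 13 higher and 4 lower past 2-fold. The median was 0.29, and -0.06 among members of at least 2 FPKM. The filter on P3 means favours higher genes here. Of the 51 members that reached 0.5 FPKM in controls, 27 were higher, 8 of them past 2-fold, with a median of 0.13. *Lrrtm4*, a leucine-rich repeat gene on chromosome 6 from 80018877 to 80810143, had 5.43 FPKM in *Dhh-Cre* and 0.498 FPKM in control testes, the highest ratio of a protein-coding gene among those with a group mean of at least 2 FPKM (log2 ratio 3.21). *Lrfn5* had 2.26 FPKM in *Dhh-Cre* and 0.438 FPKM in control testes. Both *Lrrtm4* and *Lrfn5* were kept only through their mean in *Dhh-Cre* testes. The lowest was *Cbln4*, a cerebellin gene, with 6.11 FPKM in *Dhh-Cre* and 21.7 FPKM in control testes. Markers of neurons and Schwann cells did not all share a direction. Of 6 neuron markers 4 were higher, with *Tubb3* lower at 11.4 FPKM in *Dhh-Cre* and 29.2 FPKM in control testes, and in the Schwann cell list 2 of 8 genes were lower and 6 higher, with *Gap43* at 3.14 and 1.03 FPKM.

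Several of these genes span long stretches of the genome, and the ratios were therefore set against gene length. Of 204 protein-coding genes over 400 kb from start to end, 33 (16.2%) were higher past 2-fold and 8 (3.92%) lower, with a median of 0.31. The filter on P3 means favours higher genes here too. With the minimum of 0.5 FPKM on the control mean, 19 genes over 400 kb were higher past 2-fold. The rest of the 33 were kept only through their mean in *Dhh-Cre* testes. Of the 3683 genes between 20 and 50 kb, 2.99% were higher and 2.17% lower, the smallest share of higher genes of any length class. The relation was not monotone, since 6.15% of genes under 5 kb were higher past 2-fold. Genes over 400 kb had lower levels, with a median of 2.19 FPKM against 6.94 FPKM for those of 20 to 50 kb. Among the 47 long genes of at least 5 FPKM, 3 (6.38%) were higher and 3 lower past 2-fold, with a median of 0.20. Of the protein-coding genes kept at P3, 184 over 400 kb and 438 between 200 and 400 kb also reached the minimum at P1. None of these was past 2-fold in either direction at P1.

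Other transcription factor families held differences in both directions. Of 24 Fox genes, 16 were lower and 3 passed 2-fold in each direction, with *Foxo6* at 9.49 FPKM in *Dhh-Cre* and 25.7 FPKM in control testes. Of the 23 that reached 0.5 FPKM in controls, 2 were higher past 2-fold. Among Gata genes, *Gata4*, a gonadal regulator, had 63.5 FPKM in *Dhh-Cre* and 116 FPKM in control testes, *Gata2* had 10.3 and 4.17 FPKM, and *Gata3* had 3.18 and 1.11 FPKM. In the Sox family, *Sox8* and *Sox9*, which act in Sertoli cell differentiation, were the only 2 of 15 past 2-fold, and *Sox8* had 21.0 FPKM in *Dhh-Cre* and 57.4 FPKM in control testes. The 38 nuclear receptor genes had a median of -0.02. *Vdr*, the vitamin D receptor gene, had 1.25 FPKM in *Dhh-Cre* and 3.75 FPKM in control testes, *Nr4a1* had 11.2 and 28.4 FPKM, and the retinoic acid receptor gene *Rarg* had 8.64 and 3.67 FPKM.

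A list of ovary and granulosa cell genes had 6 of 10 members higher and 4 lower, with a median of 0.74. *Nr5a2* itself was 1 of the 4 lower members. *Foxl2*, a regulator of granulosa cell fate, had 1.19 FPKM in *Dhh-Cre* and 0.520 FPKM in control testes, and at P1 it had 0.739 FPKM in *Nanos3-Cre* and 0.234 FPKM in control testes. *Wnt4*, which promotes ovary development, had 7.33 FPKM in *Dhh-Cre* and 2.96 FPKM in control testes, and *Rspo1*, which enhances Wnt signalling, had 14.5 and 5.32 FPKM. These genes are also expressed outside the ovary, and *Rspo1* and *Wnt4* are known from mesenchyme. *Fshr*, which granulosa and Sertoli cells share, was also in this list and was lower, at 4.95 FPKM in *Dhh-Cre* and 19.7 FPKM in control testes.

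Germ cell genes differed little as a group but not evenly. Of 19 measured markers of prospermatogonia and spermatogonia, 13 were lower and 6 higher, with a median of -0.18, and only *Nanos2* passed 2-fold, with 0.462 FPKM in *Dhh-Cre* and 1.23 FPKM in control testes. NANOS2 maintains spermatogonial stem cells. The stem cell receptor genes for GDNF were lower, *Gfra1* at 9.15 FPKM in *Dhh-Cre* and 14.02 FPKM in control testes and its partner *Ret* at 4.22 and 6.92 FPKM, as was *Gdnf*, the ligand gene expressed by Sertoli cells, at 6.13 and 18.0 FPKM. General germ cell markers had closer means, for example *Dazl* with 43.5 FPKM in *Dhh-Cre* and 43.4 FPKM in control testes.

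Genes of differentiating and meiotic germ cells tended the other way, with 11 of 13 higher and a median of 0.35. *Stra8*, which retinoic acid induces at the onset of differentiation and meiosis, had 4.75 FPKM in *Dhh-Cre* and 2.13 FPKM in control testes, the only member past 2-fold. *Sohlh1*, a spermatogonial transcription factor gene, had 12.9 and 7.88 FPKM in the same order. The retinoid genes included *Cyp26b1*, whose enzyme degrades retinoic acid, at 27.1 FPKM in *Dhh-Cre* and 82.8 FPKM in control testes. *Rarb*, a receptor gene that retinoic acid is known to induce, had 1.31 FPKM in *Dhh-Cre* and 0.530 FPKM in control testes, near the minimum. Whether retinoic acid differed between the groups was not tested.

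Immune genes outside the neutrophil list were mostly higher, while 50.2% of all genes kept were higher. Each of 12 measured macrophage markers had a higher mean, the median being 0.88. Among them *C1qa*, a complement gene of macrophages, had 37.9 FPKM in *Dhh-Cre* and 14.8 FPKM in control testes. Macrophage markers were also higher in P1 *Nanos3-Cre* testes, with a median of 0.61. Of 21 chemokine and receptor genes 19 were higher, and *Ccl21a*, a lymphatic chemokine gene, had 37.9 FPKM in *Dhh-Cre* and 16.9 FPKM in control testes. Of 21 MHC genes 19 were higher, with *B2m*, the light chain gene of class I molecules, at 118 FPKM in *Dhh-Cre* and 69.6 FPKM in control testes. *Il33*, an alarmin cytokine gene, had 17.2 FPKM in *Dhh-Cre* and 5.68 FPKM in control testes.

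Imprinted genes, which are expressed from 1 parental allele, were higher in 24 of 26 cases, against 50.2% of all genes kept, with a median of 0.59. *H19* had 1885 FPKM in *Dhh-Cre* and 1143 FPKM in control testes, *Cdkn1c*, a growth inhibitor gene, had 171 and 63.9 FPKM, and the transcription factor gene *Plagl1* had 201 and 99.3 FPKM. The exceptions were *Peg10*, with 15.8 FPKM in *Dhh-Cre* and 31.6 FPKM in control testes, and *Nnat*, with 32.0 and 43.2 FPKM.

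Housekeeping lists stood near the median of all genes. The medians were 0.01 for 100 nuclear genes of the respiratory chain, 0.03 for 22 genes of cholesterol synthesis, -0.04 for 22 genes of glycolysis and -0.02 for 19 heat shock genes. Ribosomal protein genes were slightly higher, 76 of 86 with a median of 0.17, as were transcripts of the mitochondrial genome, 19 of 23 with a median of 0.30. *mt-Cytb* had 7687 FPKM in *Dhh-Cre* and 6075 FPKM in control testes, the largest excess in FPKM of any gene in *Dhh-Cre* testes. The noncoding RNA gene *Gm23935* had the highest level of all, 48234 FPKM in *Dhh-Cre* and 50274 FPKM in control testes, so this 1 gene weighs on any scaling to a fixed sum. Of 28 cell cycle and replication genes 25 were lower, with a median of -0.34 and none lower past 2-fold. *Plk1*, a mitotic kinase gene, had 12.8 FPKM in *Dhh-Cre* and 22.5 FPKM in control testes, and *Ccnd1*, a cyclin gene of G1 phase, had 34.5 and 16.7 FPKM.

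Families were also formed from the symbols alone, as genes that share the letters before the first digit, which gave 267 families of at least 8 genes. The lowest median was that of Gstm (-0.86), followed by Osbpl, a family of oxysterol-binding proteins (-0.42). The Mcm family, which includes the replicative helicase, had 10 of 10 genes lower with a median of -0.31. The highest were Hoxb (1.40) and Hoxa (1.05), then Defb (1.00), Cldn (0.99), Pcdhb (0.91) and Fgf (0.91). The filter on P3 means favours such medians. *Defb2* and *Defb11* in Defb and *Hoxa11os* in Hoxa were kept only through their mean in *Dhh-Cre* testes. The wider list of defensin and antimicrobial genes had a median of 0.81, and 0.08 for members that reached 0.5 FPKM in controls. The clustered protocadherin genes of Pcdhb, adhesion receptors of neurons, were all higher (21 of 21) within a narrow range, with quartiles of 0.79 and 0.97, and 4 passed 2-fold. *Pcdhb20* had 7.05 FPKM in *Dhh-Cre* and 3.57 FPKM in control testes. These genes are similar in sequence, so their values may not be independent of each other. All 9 Tlr genes, innate immune receptors, were higher, with a median of 0.74.

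Genes past 2-fold were examined for neighbours past 2-fold in the same direction. Of the 601 lower genes with a known position, 127 (21.1%) had such a neighbour among kept genes, while 6.88% of all 16898 positioned genes had a lower gene beside them. Of 801 higher genes 209 (26.1%) had a higher neighbour, compared with 9.02% of all genes. A total of 11 runs of 3 or more adjacent lower genes and 15 runs of higher genes were found. Besides the stefin, Hox and keratin runs, they included the complement genes *C1qa*, *C1qb* and *C1qc* on chromosome 4, the S100 genes *S100a1*, *S100a13*, *S100a14* and *S100a16* on chromosome 3, and *Gabra4* and *Gabrb1* on chromosome 5, all higher. Lower runs included *Kitl*, the gene of stem cell factor, with *Gm35533* and *Gm4781* on chromosome 10. Overlapping and duplicated genes can enter such runs together.

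The promoters were examined for the motif bound by LRH1 and SF1. The window was the 300 bases from 250 before to 50 after each transcription start, taken from RefSeq on GRCm38.p6, and a promoter was found for 11373 of the 16923 genes. Each gene symbol was counted once, as holding a motif when any of its promoters held it. The letters AAGGTCA, on either strand, were present in 4.65% of 301 genes lower past 2-fold. They were present in 2.91% of 447 genes higher past 2-fold and 3.82% of all 11373. The share was 5.38% among all 27025 gene symbols with a promoter, above that of the lower genes. With a C in front (CAAGGTCA, which every match also counts among the shorter form), the shares were 2.66% (8 genes), 0.447% (2 genes) and 1.33%. The share was 1.76% among all 27025 gene symbols with a promoter. Of the 78 genes lower past 3-fold with a promoter, 1 held CAAGGTCA, so the share was not larger for the larger differences. With TC in front the motif was found in 1 of the 301 lower genes, *Syt2*, in none of the 447 higher genes and in 0.343% of all. A match is a description of these letters in this window and says nothing of binding.

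Among the 8 lower genes with CAAGGTCA were *Amhr2*, the receptor gene for anti-Müllerian hormone, with 22.8 FPKM in *Dhh-Cre* and 62.1 FPKM in control testes, *Cited1*, a transcriptional coactivator gene, with 6.85 and 31.0 FPKM, and *Syt2*, a synaptotagmin gene, with 1.08 and 3.33 FPKM. Their windows lie at chr15:102445117-102445416 (plus strand), chrX:102250727-102251026 (minus strand) and chr1:134646362-134646661 (plus strand). They are shown in full, 5′ to 3′ along the gene, because they join a match to the largest of the 8 differences, and capitals mark the motif or its reverse complement TGACCTTG.
*Amhr2*: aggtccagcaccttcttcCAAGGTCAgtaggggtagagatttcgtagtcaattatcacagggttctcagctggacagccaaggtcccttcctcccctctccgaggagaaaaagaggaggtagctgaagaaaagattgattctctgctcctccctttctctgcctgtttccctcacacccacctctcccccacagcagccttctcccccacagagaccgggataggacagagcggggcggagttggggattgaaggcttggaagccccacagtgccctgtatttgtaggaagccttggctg
*Cited1*: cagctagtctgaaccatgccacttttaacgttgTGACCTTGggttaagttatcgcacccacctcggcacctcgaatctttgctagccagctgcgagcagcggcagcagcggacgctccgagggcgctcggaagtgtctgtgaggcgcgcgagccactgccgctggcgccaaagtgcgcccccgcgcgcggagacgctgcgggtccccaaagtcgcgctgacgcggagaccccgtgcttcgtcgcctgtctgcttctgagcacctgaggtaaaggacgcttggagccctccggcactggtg
*Syt2*: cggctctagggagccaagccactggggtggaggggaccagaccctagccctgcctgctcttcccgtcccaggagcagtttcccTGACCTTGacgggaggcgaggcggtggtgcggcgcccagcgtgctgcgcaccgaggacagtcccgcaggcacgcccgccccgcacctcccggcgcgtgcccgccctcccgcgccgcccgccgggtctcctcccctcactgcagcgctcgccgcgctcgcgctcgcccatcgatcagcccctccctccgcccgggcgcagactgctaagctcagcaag
The match begins at base 19 of the window in *Amhr2*, 34 in *Cited1* and 84 in *Syt2*, and it is on the strand opposite to the gene in *Cited1* and *Syt2*.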

How the data were processed

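The authors made stranded mRNA libraries from whole testes, and the submitters' processing notes name STAR 2.7.2a, FastQC 0.11.8, cutadapt 1.18 and Trim Galore 0.6.0. Reads were mapped to GRCm38 according to the study's methods. Gene expression was estimated by strand with Rsubread on GENCODE M25. The deposited FPKM values are averages over each group, for 35983 genes, and no source used here states how each library's total was set. The authors also deposited tables of called genes with log2 fold changes and adjusted p-values, which were not used.

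With group means alone, no SD, depth, duplicate check or test was possible, and the limma test planned for values per sample was not run. Log2 ratios used 0.1 FPKM added to each mean and a minimum of 0.5 FPKM over both P3 means, and the same minimum over both P1 means at P1. Genes past 2-fold or 3-fold were counted. The 85 lists (20 of cell type markers) are described by counts and medians beside those of all genes. The comparison and the lists were chosen with earlier results of these data known. Symbols used by more than 1 gene ID (21) were left out of lists.

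Named genes were the 15 lowest and 15 highest ratios with a group mean of at least 2 FPKM, the 8 largest differences in FPKM each way, up to 4 members of each list by ratio and 2 by level, up to 3 members of the 6 lowest and 6 highest symbol families, and *Nr5a2* and *Nr5a1*. Other list and family members are named as such, and any further gene was chosen with its values in view. Positions and gene classes came from GENCODE M21 on GRCm38, which held 99.7% of the gene IDs. Computation used matplotlib 3.10.9, pandas 2.3.3, numpy 2.4.6 and Python 3.11.15 and was tested on simulated data. Alternatives were other pseudocounts (0.01 and 1 FPKM), minima and scalings. Some genes that meet the rule are not reported here.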

Additional observations from a re-analysis of the deposited data

How the results depend on the processing

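The P3 counts past 2-fold and 3-fold moved with the pseudocount and with the filter on low values. With 1 FPKM added, 293 genes were lower and 289 higher past 2-fold, 52 lower and 26 higher past 3-fold, and 110 were past 2-fold at P1. With no filter the counts were 1406 and 1796, 473 and 466, and 2044. At a mean of at least 2 FPKM they were 338 and 396, 88 and 68, and 87. With the minimum on the control mean alone, 82 genes were higher past 3-fold. For protein-coding genes only, a choice made after seeing the data, 380 genes were lower past 2-fold, 108 lower past 3-fold, and 132 past 2-fold at P1. The other values of these counts, including those after scaling each column to the same sum or setting the median ratio to 0, stayed within 1.5 times those reported, and the median of all P3 genes stayed within 0.1 (log2).

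Of the genes under 0.1 FPKM in P1 controls, the count higher past 2-fold was 12 with 1 FPKM added, 9 when means below 2 FPKM were left out, 20 with the minimum on the control mean, and 128 with no filter. Of genes over 400 kb, 8, 10 and 19 were under the first 3 of these settings. No named gene past 2-fold changed direction. Of the 85 list medians, the largest in size that changed sign was that of the neuron list (0.83), and the synaptic adhesion, Notch, Sox and core histone medians did so from smaller values.

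No paired analysis was possible because the columns are group means and carry no replicate, and no replicate was left out in turn. Ratios of genes near the minimum of 0.5 FPKM are the least precise, and the depth behind the means is unknown.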
